A study of Mus musculus with 20 samples.

Results

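The 85 genes described here carry the symbols of proteins of the cytosolic ribosome, and were chosen by symbol from the 48709 genes of the count table. A gene was taken when its class in the deposited gene map was protein-coding and its symbol had the form Rpl or Rps with a number, or was Rpsa, Rplp0, Rplp1 or Rplp2. By role, as read from the symbol, 50 genes were assigned to the large subunit and 32 to the small subunit. The other 3 (Rplp0, Rplp1 and Rplp2) were assigned to the acidic stalk of the large subunit. Whether each product is built into ribosomes was not examined. Of the 85 genes, 82 passed the filter on low counts and entered every test.

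RNA of the hippocampus from 20 young adult C57BL/6 mice (C57BL/6J in the methods of the study) had been sequenced after depletion of ribosomal RNA, with 5 samples in each of 4 groups: control females (Ct_F), nPM females (nPM_F), control males (Ct_M) and nPM males (nPM_M). nPM is nano-sized particulate matter of urban air, which the dams of the nPM groups inhaled during 5 h a day and 3 days a week, from gestational day 2 until birth, while control dams breathed filtered air. The labels give the dose as 300 mg/m3, where the methods of the study have the unit μg. Mice were 17.71 to 18.29 weeks old in the female groups and 18.57 to 19.14 weeks old in the male groups, so that age and sex cannot be told apart in these samples. The methods of the study also describe injections of EdU, used there to trace new neurons, into male mice before tissue collection. They state that all animals were injected, and do not say whether this includes females. How the litters of each exposure group were spread over the samples was not given in the labels, and the p-values measure only the spread between these samples.

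Each ribosome is built from a small subunit, which reads the messenger RNA, and a large subunit, which joins the amino acids. The cell makes its ribosomal proteins in matched amounts, largely at the step of translation: their messenger RNAs start with a run of pyrimidines, the terminal oligopyrimidine tract, through which the kinase mTOR and the RNA-binding protein LARP1 set how strongly they are translated. In neurons, messenger RNAs of ribosomal proteins are also found in dendrites and axons, far from the cell body. Levels of these messenger RNAs therefore do not give the number of ribosomes.

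The letters around the starts of these genes are shown because this tract is described for the family, though not every annotated start holds it. RefSeq promoters of GRCm38.p6 were at hand for 64 of the 85 genes. Each line holds 30 bases on the transcribed strand, 15 before the annotated start and the first 15 of the transcript, which are the beginning of the 5′ untranslated region in the first exon. Capitals mark a run of 8 or more C or T that touched the start or lay within 10 bases of it, as far as the run lies in the window.
Rpl15 (chr14:18270972-18271001, minus strand): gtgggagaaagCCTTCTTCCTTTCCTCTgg
Rpl14 (chr9:120571502-120571531, plus strand): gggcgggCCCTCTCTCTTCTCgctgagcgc
Rpl35 (chr2:39005117-39005146, minus strand): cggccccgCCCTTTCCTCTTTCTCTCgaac
Rps6 (chr4:86857353-86857382, minus strand): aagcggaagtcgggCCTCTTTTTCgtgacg
Rps27 (chr3:90213634-90213663, minus strand): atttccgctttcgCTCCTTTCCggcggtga
Rplp2 (chr7:141447636-141447665, plus strand): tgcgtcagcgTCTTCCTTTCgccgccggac
Rpl4 (chr9:64173372-64173401, plus strand): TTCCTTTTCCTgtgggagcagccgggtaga
Rpl12 (chr2:32961697-32961726, plus strand): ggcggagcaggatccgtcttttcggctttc

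Such a run was found for 29 of the 64 genes (45.3%), against 16.1% of the 27025 genes in the same table. A C at the start itself, followed by 4 bases that are each C or T, was found for 13 of the 64 (20.3%), against 3.01% of all genes. Rpl15, Rpl14, Rpl35, Rps6, Rps27 and Rplp2 hold both forms, so that the printed lines are richer in them than the 64 genes. In Rpl4 the run lies before the annotated start, and in Rpl12 no run of this length is in the window. A match is a description of these letters relative to one annotated start, and a gene without a match may start elsewhere.

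The family was among the most abundant messenger RNAs of the tissue. Levels between genes are given as RPKM, reads scaled to the length of the gene model in kilobases and to the depth of the library in counted reads. Of the 82 genes, 75 were in the top 10% of the 22018 protein-coding genes by mean RPKM over the 20 samples, and 27 were over 100 RPKM. The median was 57.6 RPKM, with a median of 94.7 for the small subunit and 47.1 for the large subunit. Within the family, levels spread 281-fold between the highest and the lowest of the 82.

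Rplp1, whose protein pairs with that of Rplp2 in the stalk that recruits elongation factors, had the highest mean level, 463 RPKM with a range of 157 to 640 over the 20 samples. It was followed by Rpl4 (260 RPKM, range 224 to 302), Rps3a1 (253, range 183 to 318), Rps29 (247, range 75.9 to 339) and Rps25 (245, range 157 to 307). The ranges of these 4 genes overlap, so their order is within the spread of the samples. Rpl4 had the narrowest range of them, and Rps29, a small zinc-binding protein of the small subunit, the widest.

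At the other end stood Rpl24 with a mean of 1.65 RPKM (25 to 112 counts per sample), Rpl13a with 6.42, Rpl7l1 with 12.02, Rps27l with 15.4 and Rpl18 with 16.3. Rpl7l1 and Rps27l were listed as close copies of Rpl7 and Rps27, while the products of Rpl24, Rpl13a and Rpl18 are regular proteins of the large subunit. Rpl24 is overlapped on its own strand by Gm28037, and Rpl13a by Gm45713, which were both listed with 0 counts in every sample. Rpl13 is overlapped in the same way by Gm20388, also with 0 counts, and had a mean of 39.1 RPKM. The part of this overlap in the low values of Rpl24 and Rpl13a was not tested. The strand and multiple-alignment settings of the counting were not given in the sources used here.

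**Figure D1:**
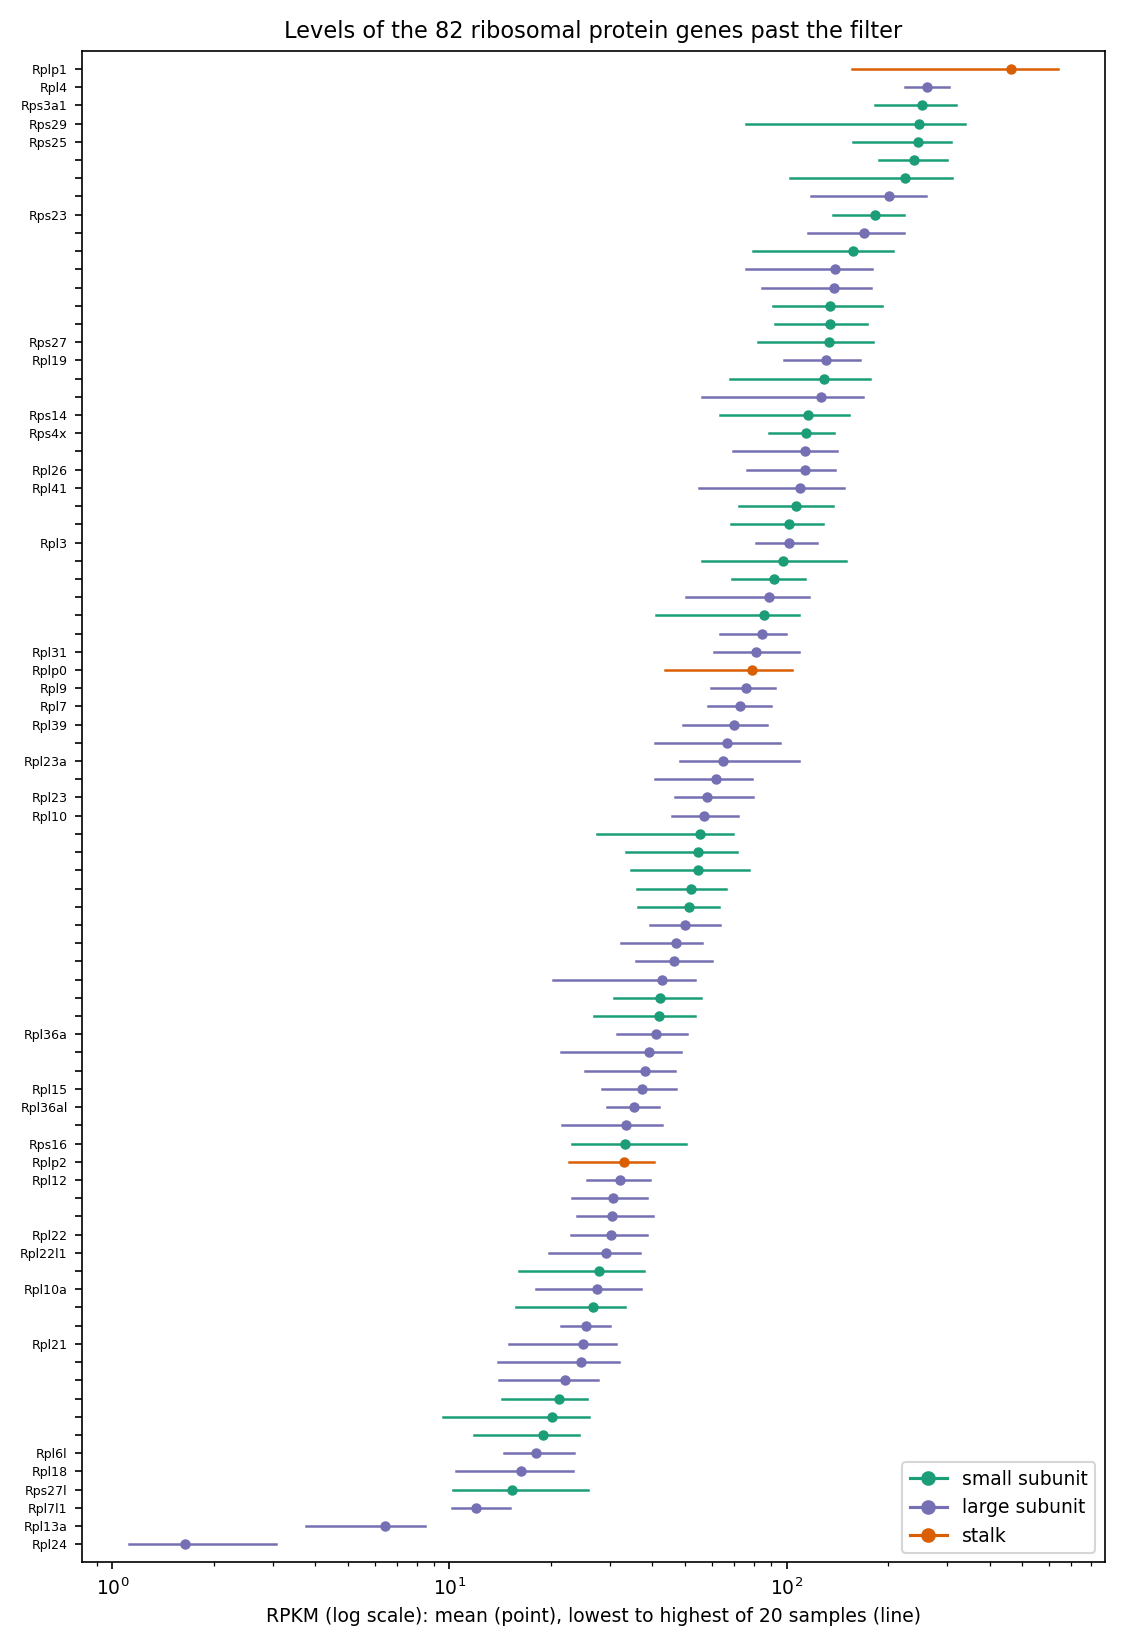
Mean RPKM (points) and the lowest to highest of the 20 samples (lines) for the 82 genes past the filter, on a log axis, colored by role, with names for the genes picked by the rule for named genes. Rplp1 lies highest at 463 RPKM and Rpl24 lowest at 1.65 RPKM, with most genes of the small subunit in the upper part.

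Some of the close copies were almost silent in the hippocampus. Rpl10l, a retrocopy of Rpl10 known from the testis, had 0 counts in all 20 samples, which allows up to 3 counts per sample (counting error only). Rpl39l, likewise known from the testis, had 0 to 4 counts per sample, 21 in all. Rpl3l, the copy of Rpl3 that striated muscle uses, had 1 to 13 counts per sample, 98 in all. These 3 are the genes below the filter. The parent genes had means of 57.1 RPKM for Rpl10 and 70.0 RPKM for Rpl39, and Rpl3 had a mean of 102 RPKM (80.9 to 123).

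Other copies were well expressed. Rpl22l1 had 29.2 RPKM beside 30.2 RPKM of Rpl22, with the ranges of both genes overlapping (19.8 to 36.8 and 23.0 to 38.5). Rpl36al had a mean of 35.2 RPKM (29.3 to 41.8) beside 41.0 RPKM (31.3 to 50.7) of X-linked Rpl36a, again with overlapping ranges. Where CPM is given below, it is the counts of a gene scaled to equal library size after TMM normalization. Rps4l, listed as the partner of Rps4x, was a transcribed processed pseudogene in the gene map and so no member; it had 110 to 438 counts per sample.

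The gene models bear on these levels. Lengths in the gene map are unions of exons with a median of 1657 bases, while the median protein-coding transcript in Gencode M21 was 712 bases for the 81 genes that had one. Per kilobase of coding transcript, Rps15a moved from 21.2 to 208, and the order of the genes correlated with the RPKM order at a Spearman rho of 0.68 across genes, so ranks in the middle of the list depend on the length used. Rplp1 was highest and Rpl24 lowest of the 81 on both scales. Ribosomal protein genes also have many processed copies. Of the 50-base words in the coding transcripts of a member, a median of 38.3% also occurred in another gene, 28 genes shared over 50%, and Rpl35 shared 95.1%. The pseudogenes named after Rpl17 held 86.9% as many counts as Rpl17, those of Rpl14 55.5%, of Rpl23a 45.6% and of Rpl21 45.2%. Reads of such genes and copies may not have been told apart in the counting.

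Ribosomal protein genes also share their loci with other genes. Within 30 of the 85 lie 58 annotated snoRNA genes on the same strand. A longer gene overlaps 24 of the 85, on the opposite strand for 20 of them and on the same strand for 4. Rpl3 overlaps Syngr1, with 76.7% as many counts, and Rpl15 overlaps Nkiras1, with 76.4% as many, both on the opposite strand. Without a stated strand setting, reads of such pairs cannot be assigned with certainty.

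Total counts were between 19092067 and 38663408 per sample. The labelled tissue was checked by summed CPM (without TMM) of marker genes: those of dentate granule neurons lay between 179 and 398, of CA1 neurons between 141 and 264 and of CA3 neurons between 132 and 233 over the 20 samples, and no marker of these lists was at 0 counts in every sample. Markers of the choroid plexus, a neighboring tissue, spread from 33.3 to 8559 CPM. In bulk tissue, fewer cells of a type and less RNA per cell cannot be told apart.

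Before any comparison, 2 libraries stood apart in this family. nPM female 4 had the lowest depth of the series, and its level, after the mean of its group was taken off, was the lowest of the 20 samples for 34 of the 82 genes, with a median deviation of -0.27 on the log2 scale. Control male 1 was lowest for 12 genes, with a median deviation of -0.17. In both, the large subunit held more counts relative to the small subunit, at ratios of 1.48 and 1.46, than in the other 18 samples, where the ratio was 1.29 to 1.38. nPM male 5 was lowest for 21 genes with a median of -0.18, but its ratio was 1.35. Other values of the 2 libraries stood at the edge of the series too. nPM female 4 had the highest shares of mitochondrial rRNA (13.3%) and of the Gencode class TEC (0.853%), and the lowest summed markers of astrocytes (901 CPM), microglia (201 CPM) and meningeal fibroblasts (15.3 CPM). Some of these edges were narrow. nPM female 2 had 13.2% mitochondrial rRNA and control female 3 had 0.846% TEC. The lowest astrocyte sum among controls was 904 CPM. Control male 1 had the highest markers of meningeal fibroblasts (138 CPM) and astrocytes (1210 CPM), the lowest of oligodendrocytes (2236 CPM), and blood markers at 41.1 CPM beside a median of 3.47 CPM over the 20 samples. The highest blood markers, 56.9 CPM, were those of an nPM male. The part of these values in the levels of the family was not tested. At the other side, control female 4 was highest for 35 genes with a median of 0.17.

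Within groups, the genes moved up and down together, sample by sample. After removal of the group means, the median Pearson r over the 3321 pairs of genes was 0.56 over 20 samples, which share library, depth and normalization, and 88.8% of the pairs were above 0. A first component held 58.8% of this variance, with the same sign for 76 of the 82 genes, and a second held 16.9%. Rps18, Rps13 and Rpl14 followed the first component most closely.

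The 6 genes of the opposite sign were Rpl23a, Rpl6l, Rpl23, Rps24, Rpl4 and Rpl7l1. In this order their loadings were -0.096, -0.093, -0.053, -0.037, -0.016 and -0.00096, beside 0.139 for Rps18. Rpl4 and Rpl7l1 thus hardly followed the component in either direction. In nPM female 4, where most of the family was low, Rpl23 was 0.36 above its group mean on the log2 scale, Rps24 0.26 above and Rpl4 0.19 above, whereas Rps13 was 0.47 below and Rpl37a 0.48 below. Control male 1 gave the same split for Rpl23 (0.31 above), Rps24 (0.22 above), Rps13 (0.24 below) and Rpl37a (0.39 below). In nPM male 5 the family was low without that split, since Rpl23 and Rps24 were 0.24 and 0.25 below their group mean. These genes were picked after the components had been seen, and their values are a description. The part of RNA quality in this pattern was not tested.

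The spread within groups also differed by gene. The SD of log2 CPM within groups had a median of 0.16 over the 82 genes. It was smallest for Rpl4 (0.076) and Rpl12 (0.087), and largest for Rps29 (0.49) and Rplp1 (0.41). In Rps29 the 5 control males had 82.5, 216, 213, 237 and 229 CPM, and the 5 nPM females had 165, 175, 157, 54.97 and 155 CPM. The low value in each group is that of control male 1 and of nPM female 4. In the nPM males, where neither sample belongs, Rps29 ran from 162 to 221 CPM.

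**Figure D2:**
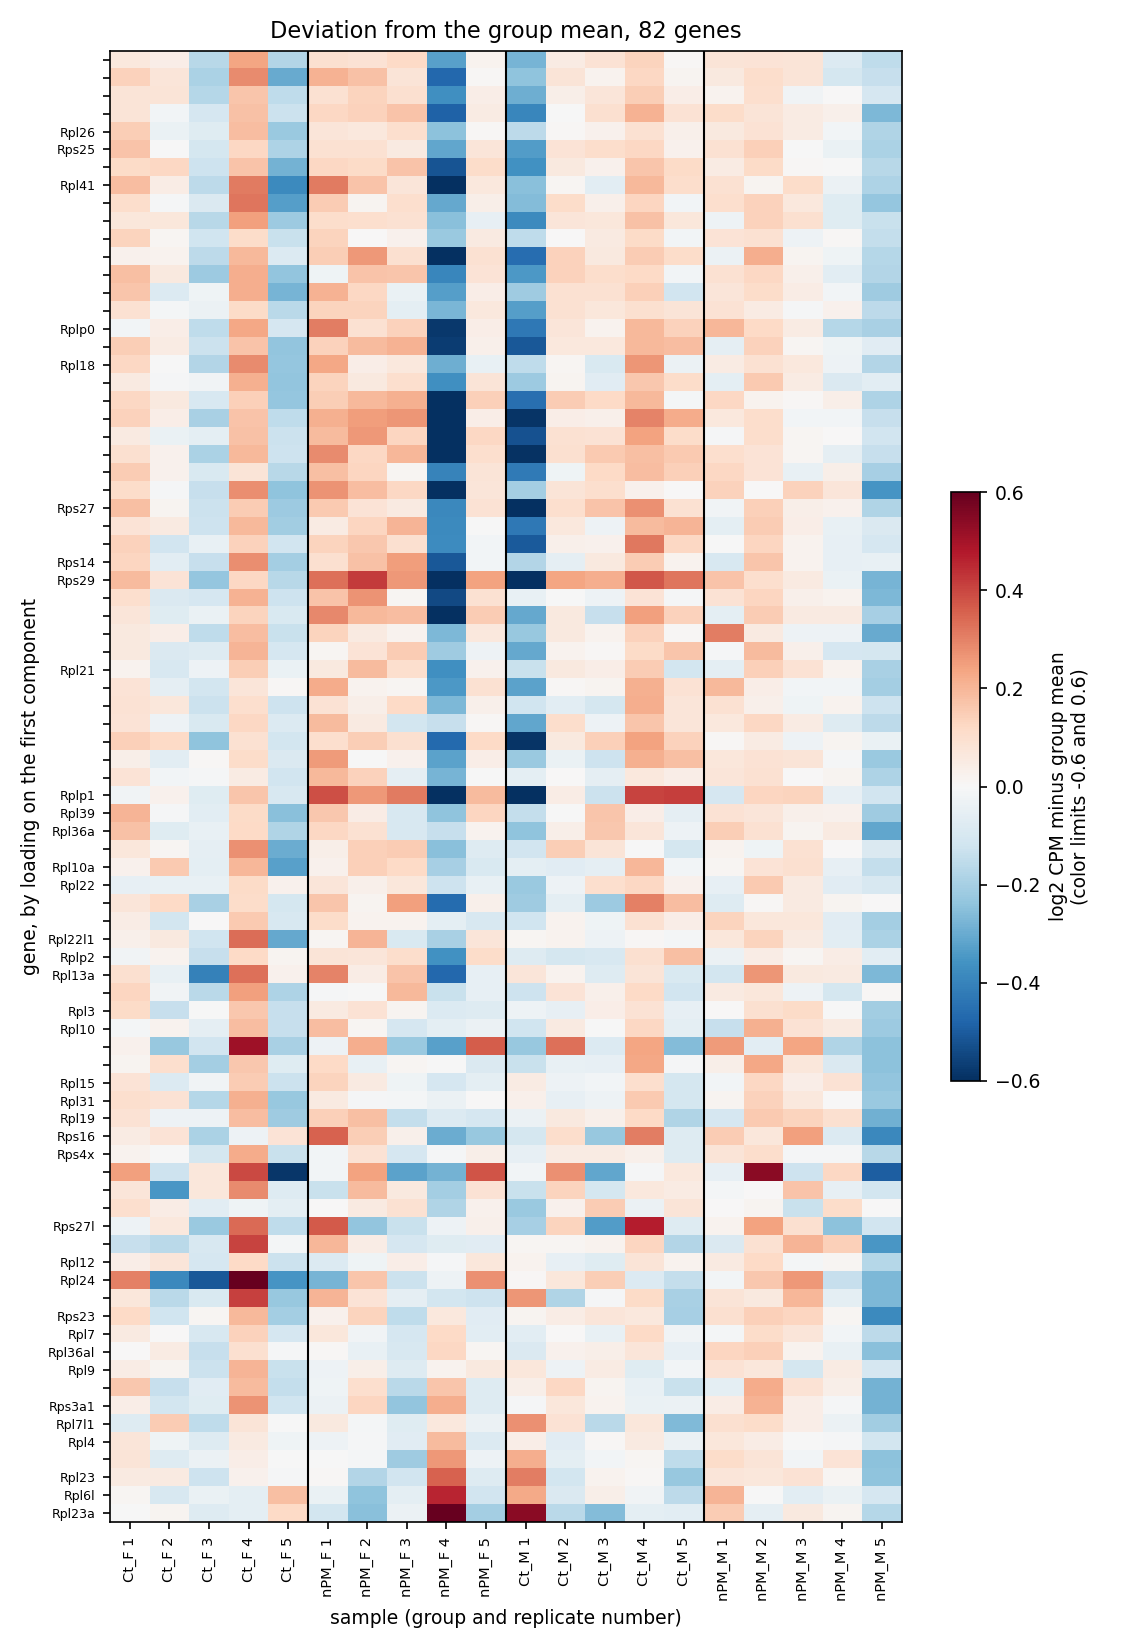
Log2 CPM minus the mean of the sample's own group for each of the 82 genes (rows, ordered by their loading on the first component) in the 20 samples (columns, by group), with colors limited at -0.6 and 0.6 and names for the genes picked by the rule for named genes. The columns of nPM female 4, control male 1 and nPM male 5 are mostly blue, and the rows at the bottom, such as Rpl23 and Rpl23a, are red in the first 2 of these.

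The first comparison asks whether gestational nPM changed these genes in the adult hippocampus. With sex as a covariate, no ribosomal protein gene passed the study's threshold of p under 0.005. The family as a whole lay close to no change: the median log2 fold change (nPM minus control) of the 82 genes was -0.028, with 19 genes above 0 and a range of -0.13 to 0.17, beside a median of -0.0059 over all 19797 genes tested. The limma-voom test called 0 of 82 genes at p under 0.005 (0.141% of all genes were called) and 1 of 82 at p under 0.05 (2.1% of all genes). The edgeR quasi-likelihood test called 0 and the DESeq2 Wald test 1 at p under 0.005, with the share of all genes not counted for either. No adjusted p was under 0.05 for any of the 19797 genes.

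The gene with the smallest p was Rplp2, whose acidic protein forms the stalk with that of Rplp1. The control females had 56.6, 58.2, 52.2, 62.4 and 58.1 CPM, and the nPM females 66.7, 66.5, 68.0, 49.1 and 68.4 CPM. Among males, the controls had 66.8, 65.5, 65.9, 75.3 and 80.0 CPM, and the nPM group 79.1, 83.7, 81.8, 83.8 and 77.7 CPM. In females 4 of the 5 nPM samples were above every control, and nPM female 4 was below every control. In males 4 of the 5 controls were below every nPM sample, and the groups overlapped through control male 5.

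With both sexes, the log2 fold change of Rplp2 was 0.17 (SE 0.058, n = 20, limma p = 0.00616, adjusted p = 0.9998). It was 0.20 in males (SE 0.068, limma p = 0.0118) and 0.16 in females (SE 0.096, limma p = 0.119), and exact permutation tests gave two-sided p = 0.0238 in males and p = 0.206 in females, where 0.00794 is the smallest that 5 samples against 5 allow. The interaction of sex and nPM was 0.055 (n = 20, limma p = 0.643). Without nPM female 4, the value with both sexes was 0.22 (n = 19, limma p = 5.38e-05). Over all settings that each left out 1 sample, it stayed between 0.16 and 0.22, with p from 5.38e-05 to 0.0136. Its partner Rplp1 had 189, 195, 182, 215 and 180 CPM in the control females, and 234.6, 215, 223, 81.1 and 204 CPM in the nPM females. The males had 145, 249, 221, 320 and 323 CPM as controls, and 262, 307, 308, 271 and 259 CPM after nPM. The lowest value of either sex was again that of nPM female 4 and of control male 1. Exact permutation tests of nPM on Rplp1 gave p = 0.984 in females and p = 0.437 in males.

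The next 5 genes by p all had negative differences, and none of them passed p under 0.05. On the log2 scale Rpl31 differed by -0.12 (SE 0.057, n = 20, limma p = 0.0555), Rpl19 by -0.12 (SE 0.065, limma p = 0.0717) and Rpl21 by -0.099 (SE 0.064, limma p = 0.137). Rps14 and Rpl41 followed with -0.11 (n = 20, limma p = 0.188) and -0.12 (limma p = 0.222). For Rpl21, Rps14 and Rpl41 the difference shrank to -0.049, -0.047 and -0.049 without nPM female 4, with limma p of 0.330, 0.477 and 0.543.

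By role, the median log2 fold change was -0.038 in the 47 genes of the large subunit and -0.024 in the 32 of the small subunit, with 8 genes above 0 in each. Without nPM female 4 the median over the 82 genes was 0.0080, on the other side of 0. The direction of the median under nPM therefore turned with 1 library.

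In each sex alone, calls were as few. In males, 0 of 82 genes passed p under 0.005 in limma-voom (0.207% of all genes) and 1, Rplp2, passed p under 0.05 (4.28% of all genes), with a median log2 fold change of -0.031 that was 0.00090 without nPM male 5. edgeR and DESeq2 called 0 genes at p under 0.005. Rpl31 came next at -0.16 (SE 0.075, limma p = 0.0545, exact permutation p = 0.0556), from 167, 159, 161, 183 and 153 CPM in control males to 149, 162, 153, 147 and 126 CPM in nPM males, which overlap. Rpl24 differed by 0.33 (SE 0.16, limma p = 0.0558, exact permutation p = 0.0238), at 1.60, 1.68, 1.77, 1.52 and 1.45 CPM in control males and 1.99, 2.24, 2.41, 1.82 and 1.66 CPM in nPM males, on 43 to 83 counts per sample. Without control male 1, 5 genes had limma p under 0.05 in males (4.55% of all genes), and without nPM male 2 also 5 (4.44% of all genes), of which 1 in each case was higher after nPM.

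In females, 0 of 82 genes passed p under 0.005 in limma-voom (0.0909% of all genes), 0 in edgeR and 0 in DESeq2. The median log2 fold change was -0.0064. At p under 0.05 limma-voom called 1 gene (1.99% of all genes), Rps16, a protein of the small subunit near the decoding site. Without nPM female 4 the median was 0.052, and 4 genes had limma p under 0.05, all higher after nPM (2.7% of all genes were called higher), of which 1, Rplp2 with 0.25, passed p under 0.005 (0.242% of all genes).

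Rps16 had opposite signs in the sexes. Control females had 33.6, 34.4, 28.5, 31.9 and 34.4 CPM and nPM females 49.3, 42.7, 39.5, 31.4 and 33.0 CPM. Control males had 48.2, 55.7, 44.3, 64.1 and 49.1 CPM and nPM males 49.0, 46.1, 52.3, 41.6 and 33.7 CPM. The ranges of nPM and control overlap in both sexes. The log2 fold change of Rps16 was 0.28 in females (SE 0.12, limma p = 0.0427, exact permutation p = 0.111) and -0.24 in males (SE 0.13, limma p = 0.0871, exact permutation p = 0.151).

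Tested itself, the interaction of sex and nPM (effect in males minus effect in females) was -0.50 for Rps16 (SE 0.18, n = 20, limma p = 0.0136, adjusted p = 0.9875). It did not pass p under 0.005, and over the 20 settings that each left out 1 sample it was between -0.58 and -0.40 with p from 0.0052 to 0.0314. In limma-voom, Rps16 was the 1 gene of 82 with interaction p under 0.05 (3.79% of all genes), where edgeR and DESeq2 each called 2. For edgeR and DESeq2 the share of all genes was not counted. At p under 0.005, limma-voom (0.217% of all genes), edgeR and DESeq2 each called 0 of 82. Rpl23 came next (-0.29, SE 0.14, n = 20, limma p = 0.0562), followed by Rps27l (-0.38, SE 0.22, limma p = 0.0931), Rpl24 (0.56, SE 0.33, limma p = 0.0998), Rpl10a (-0.22, SE 0.13, limma p = 0.107) and Rps23 (-0.22, SE 0.14, limma p = 0.123). Rpl23 had -0.21 without nPM female 4. For the 82 genes the median interaction was -0.0040.

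**Figure D3:**
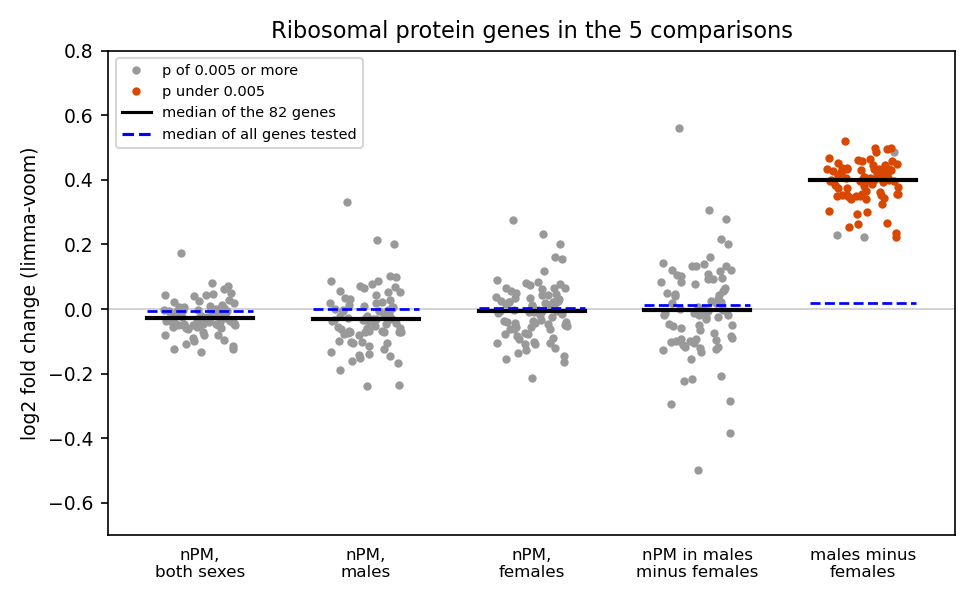
Log2 fold changes of the 82 genes (points) in the 5 limma-voom fits, with the median of the 82 genes (black line) and of all 19797 genes (dashed blue line). Orange marks p under 0.005, and spread along the horizontal axis is only to separate points. The 4 nPM fits center near 0 with no orange point, while the difference between males and females centers at 0.40 with 78 orange points.

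Lists of related genes gave equally few calls under nPM. With both sexes, 0.141% of all genes passed p under 0.005 and 2.1% passed p under 0.05. Of 77 tested mitochondrial ribosomal proteins, 0 passed p under 0.005 with both sexes and 3 passed p under 0.05, all higher, with a median of -0.017. Of 36 complex I subunits, 38 translation factors, 38 ribosome biogenesis genes, 15 genes of the TOR pathway and 8 snoRNA host genes, 0 passed p under 0.005 in limma-voom with both sexes. At p under 0.05 the 5 lists gave 1 call in all, a translation factor that was lower.

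The second comparison is between the sexes, with exposure as a covariate. Here all 82 tested genes were higher in males. The median log2 fold change (male minus female) was 0.40, or 1.32-fold, and the range of 0.22 to 0.52 did not reach 0. The limma-voom test called 78 of 82 genes at p under 0.005, all higher in males (13.9% of all genes were called higher, and 31.1% in either direction), and 81 at p under 0.05 (48.4% of all genes). After adjustment, 80 had p under 0.05 (40.4% of all genes). edgeR called 77 and DESeq2 79 at p under 0.005. With normalization on protein-coding genes alone, 74 passed and the median was 0.35. The share of all genes called was not counted for edgeR, DESeq2 or this normalization. The median over all genes was 0.019. The 4 genes without p under 0.005 were Rpl6l (0.22, n = 20, limma p = 0.00704), Rplp1 (0.49, limma p = 0.00706), Rps29 (0.44, limma p = 0.0354) and Rpl24 (0.23, limma p = 0.187). Of these, Rplp1 and Rps29 had differences as large as the rest but the largest spread within groups.

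The smallest p belonged to Rpl12, which sits at the base of the stalk. Over 10 females it had 91.4, 97.8 and 109 CPM as the lowest, median and highest value, and over 10 males 116, 133 and 141 CPM, so that no male overlapped with a female. The log2 fold change was 0.41 (SE 0.043, limma adjusted p = 2.34e-06).

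Rps4x, an X-linked gene of the small subunit, had 144, 158 and 184 CPM in females and 186, 217 and 227 CPM in males, without overlap (0.44, SE 0.047, limma adjusted p = 2.83e-06). Rpl15 had 67.9, 73.9 and 83.2 CPM in females and 85.9, 104 and 114 CPM in males (0.46, SE 0.052, limma adjusted p = 3.80e-06). Rpl9 followed with 183, 204 and 231 CPM in females and 247, 269 and 282 CPM in males (0.40, SE 0.045, limma adjusted p = 4.47e-06). In each of these genes the lowest male was above the highest female.

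Rpl22, whose protein binds RNA also outside the ribosome, had 69.9, 75.5 and 82.2 CPM in females and 85.1, 99.3 and 112 CPM in males (0.39, SE 0.048, limma adjusted p = 8.06e-06). Rpl26, at the exit of the peptide tunnel, had 116, 140 and 158 CPM in females and 165, 194 and 203 CPM in males (0.45, SE 0.057, limma adjusted p = 9.54e-06).

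Counted over the family, 13 of 82 genes (15.9%) had every male sample above every female sample, against 1.67% of all genes tested, and 0 had the reverse (3.15% of all genes). Beside the 6 just named these included Rpl7, Rpl8, Rpl10a, Rpl18, Rps3 and Rps20, listed here after their values were seen. The largest log2 fold changes were those of Rpl18 (0.52), Rpl22l1 (0.50), Rps27l (0.50), Rps21 (0.50) and Rplp1 (0.49), and the smallest those of Rpl6l (0.22) and Rpl7l1 (0.22).

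Close copies did not always have the same size of difference as their partners. Rpl22l1 had 0.50 (SE 0.065) beside 0.39 (SE 0.048) for Rpl22, Rps27l 0.50 (SE 0.11) beside 0.42 (SE 0.095) for Rps27, and Rpl7l1 0.22 (SE 0.064) beside 0.35 (SE 0.047) for Rpl7. Rpl36al had 0.30 (SE 0.051) beside 0.35 (SE 0.065) for Rpl36a. The differences between partners were not tested. The X-linked genes Rpl10 (0.35), Rpl36a (0.35), Rpl39 (0.41) and Rps4x (0.44) lay within the range of the autosomal genes.

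By role, the median sex difference was 0.40 in the large subunit (45 of 47 genes at p under 0.005), 0.42 in the small subunit (31 of 32) and 0.35 in the 3 stalk genes (2 of 3). Genes with a pyrimidine run at the start had a median of 0.41 (29 genes), and genes of the promoter table without one 0.40 (32 genes). The nPM medians of the same groups were -0.028 and -0.026.

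Summed over the 85 genes, the family held 1.02 ± 0.085% (SD, n = 5) of the counts on nuclear protein-coding genes in the control females and 1.01 ± 0.10% in the nPM females. The male groups held 1.29 ± 0.12% as controls and 1.27 ± 0.10% after nPM. Females lay between 0.840 and 1.12%, and males between 1.11 and 1.43%. The sexes met at their edges, where control male 1 (1.11%) and nPM male 5 (1.12%) lay beside control female 4 (1.12%) and control female 1 (1.10%). The difference of 0.27 percentage points was 0.25 to 0.29 when any 1 sample was left out, and 0.22 with all counted reads as the denominator.

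**Figure D4:**
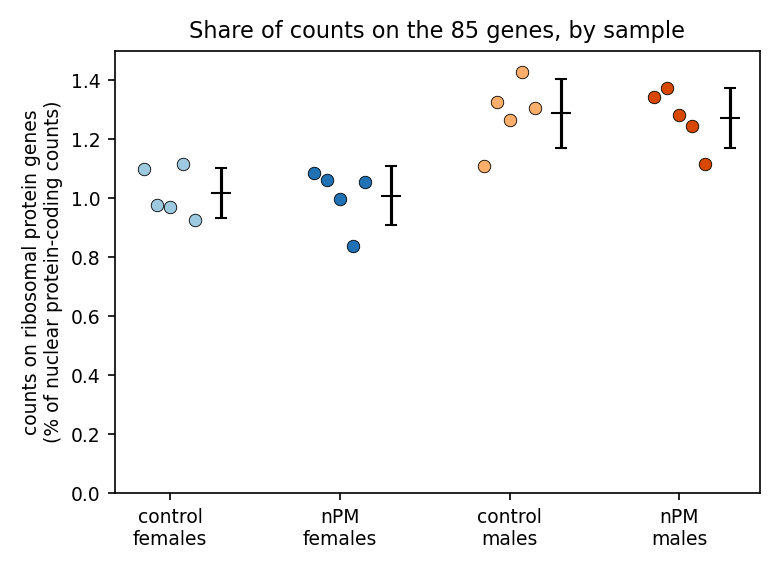
Counts on the 85 genes as percent of the counts on nuclear protein-coding genes, 1 point per sample, with the mean and SD of each group of 5 beside the points. Both male groups (means 1.29 and 1.27%) lie above both female groups (1.02 and 1.01%), and nPM and control of the same sex have overlapping ranges.

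The difference was present in each exposure. In controls alone, 81 of 82 genes were higher in males, with a median of 0.38, and 56 had p under 0.005 in limma-voom, all of them higher (18.6% of all genes in either direction and 6.46% higher), and 76 p under 0.05 (39.6% of all genes). In nPM samples alone, all 82 were higher, with a median of 0.41, and 50 had p under 0.005, all of them higher (11% of all genes in either direction and 4.29% higher), and 75 p under 0.05 (29% of all genes). Without nPM female 4 and control male 1 together, 80 of 82 genes had p under 0.005, all of them higher (31.7% of all genes in either direction and 14.5% higher), with a median of 0.38. These 3 settings were added after the data had been seen. The gene below 0 in controls was Rpl24, where control female 4 alone had 3.12 CPM beside 1.12 to 1.98 CPM in the other control females.

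Ribosomal proteins outside the symbol rule were also examined. Fau, which encodes a fusion with the small subunit protein S30, was higher in males by 0.49 on the log2 scale (SE 0.11, limma adjusted p = 0.00115) and Rack1, a scaffold on the small subunit, 0.36 (SE 0.080, limma adjusted p = 0.00135).

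Lists of related genes, named beside their counts at p under 0.005, differed between the sexes as follows. Of all genes tested, 31.1% passed this threshold in either direction, and 13.9% were called higher in males. Of the 77 mitochondrial ribosomal proteins, 73 were above 0, with a median of 0.25, and at p under 0.005 47 were higher in males and 1, Mrpl37, lower. All 36 complex I subunits were above 0, with a median of 0.34 and 32 at p under 0.005. Of 8 snoRNA host genes all were above 0, with a median of 0.30 and 5 at p under 0.005, among them Gas5 (0.31, SE 0.040, limma adjusted p = 9.91e-06).

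Of the 38 translation factors, 30 were above 0, with a median of 0.18, 23 higher and 2 lower at p under 0.005. Eef1a1, the elongation factor that brings tRNAs to the ribosome, was higher in males by 0.32 (SE 0.059, limma adjusted p = 0.000254). The 2 lower were Pabpc1, the poly(A)-binding protein (-0.25, SE 0.052, limma adjusted p = 0.000665), and Eef1a2, the neuronal form of the elongation factor (-0.25, SE 0.074, limma adjusted p = 0.00982). Of 38 ribosome biogenesis genes, 25 were above 0, with a median of 0.070, 6 higher, such as the nucleolar chaperone Npm1 (0.34, SE 0.058, limma adjusted p = 0.000115), and 1, Utp20, lower. The 6 called higher are near the share of all genes called higher, 13.9%.

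Of 15 genes of the TOR pathway, which acts on the translation of the family, 6 were above 0, with a median of -0.13, and at p under 0.005 1 was higher in males and 7 were lower. Over all genes tested, 31.1% were called in either direction and 13.9% higher. Of the 15, the higher one was Mycn (0.45, limma adjusted p = 0.0029). Lower were Mtor itself (-0.13, SE 0.034, limma adjusted p = 0.00349), its scaffold Rptor (-0.35, SE 0.057, limma adjusted p = 8.33e-05), Larp1 (-0.25, SE 0.052, limma adjusted p = 0.000821), the inhibitors Tsc1 (-0.26) and Tsc2 (-0.39), Eif4ebp2 (-0.39) and Rps6kb2 (-0.47). The list thus holds activators and inhibitors of the kinase among those lower in males. Single genes of these lists were named after their values were seen.

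Several properties of the libraries moved with sex, and their part in the difference was not tested. The shares of counts on genes of the Gencode class TEC, transcripts that await experimental proof, were 0.458 to 0.853% in females and 0.254 to 0.460% in males, and on lincRNA genes 2.47 to 3.55% and 1.43 to 2.15%. The 5 endothelial markers summed to 137 to 202 CPM in females and 106 to 127 CPM in males, without overlap. Summed markers of the other 11 cell types and regions overlapped between the sexes, some with different medians. Astrocyte markers had a median of 982 CPM in females (901 to 1067) and 1071 CPM in males (1043 to 1210). Choroid plexus markers had a median of 188 CPM in females (49.4 to 8559) and 1867 CPM in males (33.3 to 7303). Age did not overlap either, and EdU injection was described for male mice, as stated above.

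Gene length moved with the sex difference too. Among the 14925 other protein-coding genes, the median log2 fold change was 0.46 for gene models up to 500 bases, 0.30 for those up to 1000, 0.21 up to 2000, 0.11 up to 4000, 0.0091 up to 8000 and -0.068 above, each counted from the end of the bin before. For the ribosomal protein genes it was 0.45, 0.41, 0.41, 0.38 and 0.40 in the 5 bins up to 8000, with no gene in the last. The first bin holds 4 of them and the fifth 5. The Spearman rho between length and log2 fold change was -0.33 across the other protein-coding genes and -0.19 across the 82, as a description across genes of the same libraries. The family was thus at the level of other genes in the shortest bin and above their median in the 4 longer bins, for gene models that are unions of exons and exceed the family's transcripts.

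**Figure D5:**
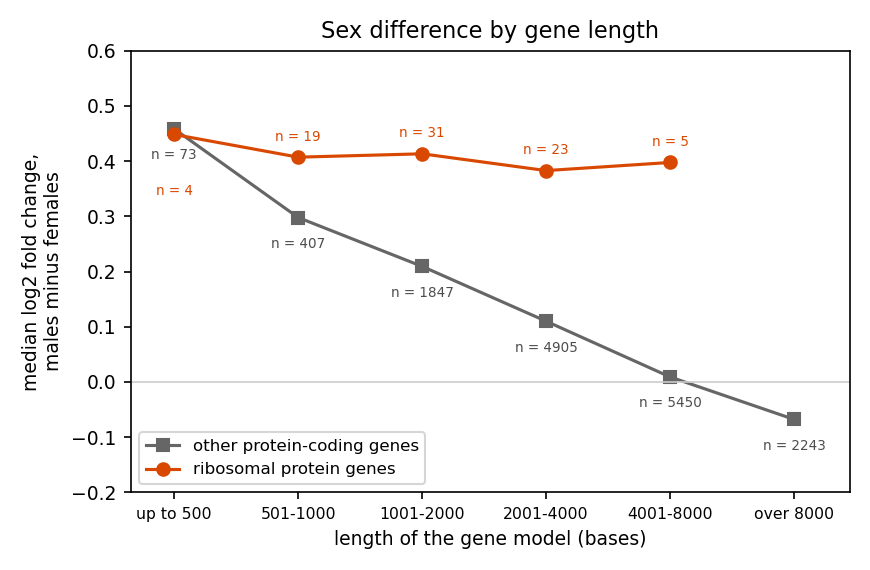
Median log2 fold change (males minus females) of ribosomal protein genes (orange circles) and of other protein-coding genes (gray squares) by length of the gene model in bases, with the number of genes per bin. The gray line falls from 0.46 to -0.068, while the orange points stay between 0.38 and 0.45.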

How the data were processed

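Hippocampal RNA of 20 mice, 5 per group, was analyzed. Per the labels and methods, the authors prepared RiboZero Gold libraries, trimmed them with Trimmomatic after FastQC, aligned to mm10 with HISAT2 and counted reads on Gencode M11 with featureCounts 1.5.0-p3. The deposited values are raw whole-number counts for 48709 genes. The authors' gene map gives lengths and mean RPKM, which the counts reproduced to 4.91e-11 here. No sample column was left unused (0).

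Groups came from sample titles. Genes passing filterByExpr over the 4 groups (minimum count 10, minimum total 15; 19797 genes) were fitted with TMM (edgeR 4.0.16), voom (offset 0.5) and empirical Bayes in limma 3.58.1 (R 4.3.3). All tests were two-sided. The fits were exposure with sex, exposure within each sex, their interaction, and sex with exposure, at p under 0.005 and 0.05 and with Benjamini-Hochberg adjustment over all genes. Single genes were compared by exact permutation of log2 CPM within a sex or exposure. Shares, levels and covariation got no test. Scripts (Python 3.11.15, pandas 2.3.3, scipy 1.17.1) were tested on simulated data. Alternatives included the edgeR quasi-likelihood test and DESeq2 1.42.0. Named genes were the 6 smallest p of each fit, the 5 highest and 5 lowest RPKM, X-linked genes, close copies and the stalk. Members and lists were chosen with earlier results of these data known. A planned comparison of proteins was not made here. Counts of 19092067 to 38663408 per sample make counting error small for all tested members but Rpl24. Samples were not treated as pairs by replicate number in the main fits. Results of some genes are not reported here.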

Additional observations from a re-analysis of the deposited data

Results flagged for a closer look

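In groups of 5, a sample was marked when its gap to the nearest other sample was over 0.71 of the whole range of the group (Dixon's 95% critical value). Over 152 groups of the named genes and of the share of counts, 21 values in 5 of the 20 samples were marked, where chance gives about 7.6 (1 in 20 groups). The groups share samples, so the marks are not independent.

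In nPM female 4, log2 CPM was low for Rpl26 (6.85), Rpl41 (6.07), Rplp1 (6.34), Rplp2 (5.62), Rps25 (6.81), Rps27 (6.49) and Rps29 (5.78). It was high in the same sample for Rpl23a (6.23), Rpl4 (8.59) and Rpl6l (4.44). In control male 1 it was low for Rplp0 (6.72), Rps25 (7.23), Rps27 (6.67) and Rps29 (6.37) and high for Rpl23a (6.59). Rps25, Rps27, Rps29 and Rpl23a were therefore marked in both samples, in the same direction.

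In nPM male 5, Rpl23 (6.51), Rpl36a (5.92), Rpl39 (6.60) and Rps23 (6.81) were low. Rps23 was also low in control male 5 (7.15), and Rpl10a was high in control male 4 (6.45).

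Rps16 was marked because its nPM effect differed between males and females, with an interaction of -0.50 on the log2 scale (n = 20, limma p = 0.0136, adjusted p = 0.9875), the smallest of 82 interaction p-values in the family.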

How the results depend on the processing

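Replicate numbers were checked for pairing by the correlation of deviations from the group means. Over 20 pairs r was -0.36 to 0.22, 7 were over 0.1, and 6 of 20 samples correlated best with their own number. Between samples of different groups the median r was -0.0065 for equal numbers and 0.0017 for unequal numbers. This check cannot exclude a pairing. With the replicate block, genes at p under 0.05 numbered 3 with both sexes, 2 in males and 2 in the interaction, and the block moved the other counts by less than 1.5 times. With both sexes the number at p under 0.05 was 2 in the edgeR quasi-likelihood test, in DESeq2, with normalization on protein-coding genes and with age as a covariate, and 1 gene, Rplp2, passed p under 0.005 in DESeq2 and with normalization on protein-coding genes. In males 2 genes had p under 0.05 in DESeq2, with normalization without the family, on protein-coding genes, or without the filter. In females it was 0 without the filter and with age as a covariate. In the interaction it was 2 in edgeR, DESeq2 and with normalization without the family. The cause of these moves was not tested. In these alternative settings the share of all genes called was not counted, so the counts have no background beside them.

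Leaving out 1 sample at a time gave 0 to 1 genes at p under 0.005 and 1 to 3 at p under 0.05 with both sexes, 0 to 1 and 1 to 5 in males, 0 to 1 and 0 to 4 in females, and 1 to 3 at p under 0.05 in the interaction. The 1 gene at p under 0.005 was Rplp2, without control female 4, control male 5 or nPM female 4 with both sexes, without control male 5 in males and without nPM female 4 in females. The median nPM effect of the family lay between -0.047 and 0.0080 with both sexes, between -0.076 and 0.00090 in males and between -0.041 and 0.052 in females. At p under 0.005 the sex difference gave 74 to 79 genes, but 50 in the nPM samples alone. The share of all genes called was counted for only some of the fits in this paragraph, and is given above. Without the filter the median of all genes in the sex fit shifted to -0.10 and that of the family was 0.41. Of the single-gene values under the alternatives, 725 stayed on their side of the threshold, 7 came to pass it and 0 reversed. Depth limits Rpl24 and the 3 genes below the filter.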
